A study of Drosophila melanogaster with 4 samples.

Results

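The glutathione transferase (GST) and cytochrome P450 genes of Drosophila were followed on 4 two-colour arrays that set laser wounded embryos against unwounded ones right after wounding. They were found by symbol among the probes that the array annotation pairs with 1 gene, as Gst with a class letter (D, E, O, S, T or Z) and a digit, or Cyp with a digit. Of 8360 genes with a value on at least 3 arrays, 82 matched. These were 22 GST genes on 23 spots, 58 P450 genes on 64 spots, and Cyp1 and Cyp40, which share the letters but encode cyclophilins, a family of protein-folding enzymes, and were kept apart. All 80 GST and P450 genes had a value on every array, so the filter removed none. The RefSeq gene list of Release 6 holds 35 GST and 85 P450 symbols under the same rule, so 13 GST and 27 P450 genes had no spot of their own here. GstS1, the sigma class gene, is among them, since both of its clones are also paired with CG13088.

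Wounded embryos were collected at 0 to 1 h, hand dechorionated, held in halocarbon oil and laser wounded. Unwounded embryos went through the same steps without the laser. Both carried sGMCA, a reporter of cortical actin, and both were frozen right away (0 min). Each array took 30 ug of total RNA per condition from pools of whole embryos, which at this age are syncytia, with many nuclei in a shared cytoplasm. Fewer embryos of an age in a pool and less RNA per embryo cannot be told apart. By the labels, RNA of wounded embryos was labelled with Cy3 in experiments 3, 7 and 8 and with Cy5 in experiment 4, the dye swap, and RNA of unwounded embryos took the other dye. The values are log2 ratios with no intensities, so they carry no level, and the presence of a transcript or of a marker of stage cannot be read from them. The ratio may be that of the dyes or that of wounded to unwounded embryos, and no source used here says which. Means are therefore reported in size, with no direction, first with the sign of experiment 4 turned against the other arrays and then with it not turned. Signs of single arrays are as deposited.

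GST enzymes join glutathione to reactive electrophiles and to products of oxidative damage, and some of them isomerise or reduce small metabolites. P450 enzymes are heme monooxygenases that put an oxygen atom into steroids, fatty acids, drugs and plant toxins, drawing electrons from a reductase or, in mitochondria, from a ferredoxin. In insects, members of both families are best known for insecticide resistance and are abundant in gut, fat body and Malpighian tubules, whereas the embryo at this age lives largely on RNA that the mother laid down.

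The delta class gene with the widest swing among the arrays, GstD1, is read by clones RH09431 and RH47312. The clone table of the study pairs RH47312 with both GstD1 and GstD2, which lie in one group of GstD genes on chromosome arm 3R, so no spot reads GstD2 alone. For quantitative PCR the study took a separate primer pair for each gene from a public primer bank. These pairs are shown here because they are listed under 1 gene each, unlike clone RH47312, and whether either pair also takes up the other transcript was not tested. They are written 5′ to 3′, with forward and reverse primers named F and R.
GstD1-F2: ggtgactcccttaccgtagc
GstD1-R2: ttggcgtacttgctgatctcg
GstD2-F: gacttttactacatgccaggtgg
GstD2-R: gcaacagatagtcatccttgcc

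No GST and no P450 gene differed between wounded and unwounded embryos past the threshold of the study, a limma adjusted p under 0.05 with a mean ratio of at least 1.5-fold in size. The count was 0 of 22 GST genes, 0 of 58 P450 genes and 0 of all 8360 genes (0.00%), with experiment 4 turned or not. At an unadjusted p under 0.05 and with experiment 4 turned, limma gave 0 of 22 GST genes and 1 of 58 P450 genes, Cyp4d20, against 4.80% of all genes. With experiment 4 not turned it gave 2 GST genes, GstE14 and GstT4, and 4 P450 genes, Cyp28d1, Cyp309a2, Cyp6a8 and Cyp9c1, against 2.40% of all genes. The smallest limma adjusted p was 0.998 among GST genes and 0.962 among P450 genes (0.997 for both with experiment 4 not turned).

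The mean over the arrays reached 1.5-fold in size for no GST gene and for 1 P450 gene, again Cyp4d20, against 0.789% of all genes with experiment 4 turned and 0.682% with it not turned. The 95% interval of the mean, from limma, lay wholly within 1.5-fold in size for 19 of 22 GST genes and 51 of 58 P450 genes, against 92.0% of all genes. With experiment 4 not turned these counts were 18 and 48, against 91.7%. With experiment 4 turned, the GST genes with wider intervals were GstD1, GstE6 and GstO3. The P450 genes were Cyp4d20, Cyp4p2, Cyp6a18, Cyp6a19, Cyp6d5, Cyp18a1 and Cyp310a1. With experiment 4 not turned, GstD3, Cyp4g1, Cyp6a8 and Cyp9b1 joined them.

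Among the delta class genes, GstD1, GstD3 and GstD4 kept one sign on 3 arrays and took the other in experiment 8. GstD1, whose enzyme can also break down DDT, had ratios of 0.47, 0.44, 0.82 and -0.72 in experiments 3, 4, 7 and 8. Its mean was 0.034 in size (SD 0.728 over 4 arrays, adjusted p = 0.998 from limma), and 0.25 (SD 0.669) with experiment 4 not turned. The mean was thus far smaller than the spread among arrays in either reading. GstD3 had ratios of 0.22, 0.20, 0.77 and -0.19, and GstD4 of 0.19, 0.36, 0.47 and -0.58. GstD11, at the far end of the same gene group, had the opposite sign to them in experiments 3, 7 and 8 and the same sign in experiment 4, with ratios of -0.086, 0.11, -0.55 and 0.65.

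Of the 10 epsilon class genes, GstE3 and GstE6 varied in the way of GstD1. GstE3 had ratios of 0.42, 0.33, 0.35 and -0.46, and GstE6 of 0.46, 0.25, 0.73 and -0.64. GstE14, which acts in the making of the moulting hormone ecdysone, was the GST gene with one sign on all 4 arrays when experiment 4 was not turned, at -0.32, -0.047, -0.18 and -0.26. Its mean of 0.18 in size (SD 0.160) was the largest of any GST gene with experiment 4 turned, and it was 0.20 (SD 0.117 over 4 arrays, adjusted p = 0.997 from limma) with experiment 4 not turned. GstE9 had ratios of 0.089, 0.31, 0.23 and -0.0030. The others, GstE1, GstE2, GstE7, GstE11, GstE12 and GstE13, lay between -0.28 and 0.24 on every array.

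The omega class includes enzymes that reduce rather than conjugate their substrates. GstO3 had ratios of 0.43, 0.25, 0.81 and -0.48, with the sign of GstD1 on each array. GstO1 had ratios of -0.090, -0.40, 0.18 and -0.026, and GstO2 lay between -0.054 and 0.090. In the theta class, GstT4 had ratios of 0.48, 0.41, 0.33 and -0.068, with a mean of 0.083 in size (SD 0.401), and of 0.29 (SD 0.244 over 4 arrays, adjusted p = 0.997 from limma) with experiment 4 not turned. GstT1 and GstT3 lay between -0.21 and 0.15. The zeta class, to which the maleylacetoacetate isomerase of tyrosine breakdown belongs, lay between -0.20 and 0.16 for GstZ1 and between -0.091 and 0.067 for GstZ2.

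**Figure D1:**
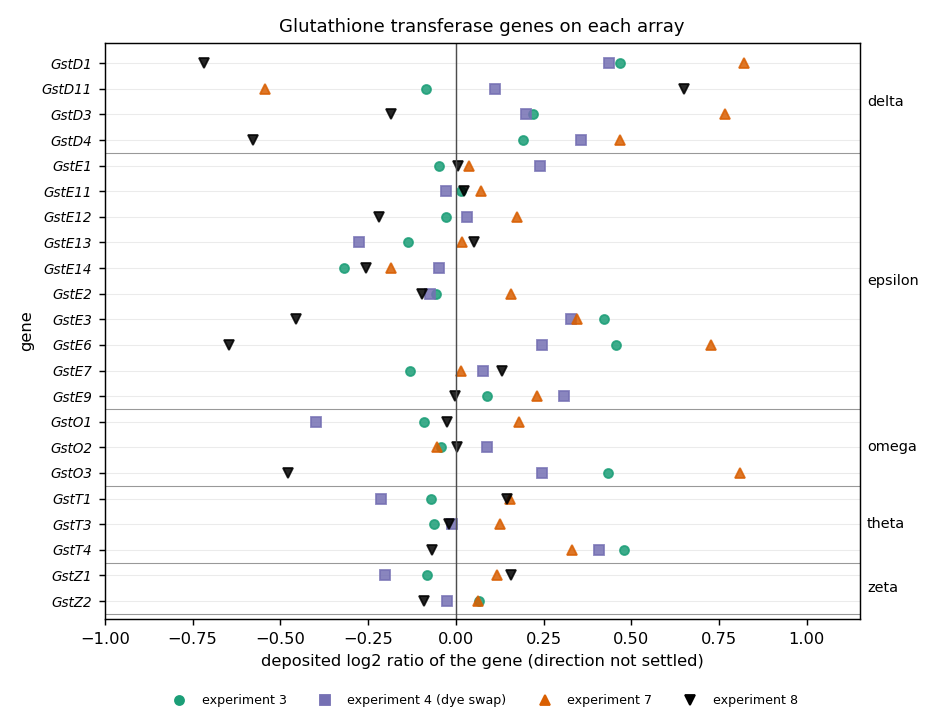
Deposited log2 ratios of the 22 GST genes, 1 row a gene, grouped by class, with 1 symbol for each of the 4 arrays; the sign has no settled direction and no array is turned. GstD1, GstD3, GstD4, GstE3, GstE6 and GstO3 have experiments 3, 4 and 7 to the right of 0 and experiment 8 to the left of it, and GstD11 has experiments 7 and 8 the other way round.

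The P450 genes fell into 4 clans, the main branches of the insect family. Clan 3, which holds most of the enzymes known for insecticide and plant toxin breakdown, had 29 genes here. The study followed up Cyp6a9 and Cyp6a19 of this clan. Cyp6a19 had ratios of 0.80, 0.19, 0.82 and -0.62 in experiments 3, 4, 7 and 8, which gave 0.20 for the size of the mean (SD 0.720 over 4 arrays, adjusted p = 0.998 from limma), and of 0.30 (SD 0.676) with experiment 4 not turned. Cyp6a9 had ratios of 0.44, 0.0085, 0.59 and -0.27, with a mean of 0.19 in either reading (SD 0.397, and 0.394 with experiment 4 not turned). As for GstD1, the sign in experiment 8 was opposite to that of the other arrays for both genes, and neither mean exceeded the spread.

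Among other clan 3 genes, Cyp6d5 and Cyp6a18 lay farthest from 0 in experiment 3. Cyp6d5 had ratios of 1.19, -0.00021, 0.40 and -0.24, and Cyp6a18 of -1.15, 0.21, -0.045 and -0.37. Cyp310a1 had ratios of -0.36, 0.091, -0.94 and 0.17, and Cyp9b2 of -0.0097, 0.0053, -0.39 and 0.34. Both ran against Cyp6a19 in experiments 7 and 8. Cyp6a8, a P450 gene known to be induced by barbital, had ratios of 0.33, 0.50, 0.53 and 0.11, all of one sign as deposited. Its mean was 0.37 in size (SD 0.189 over 4 arrays, adjusted p = 0.997 from limma) with experiment 4 not turned, and 0.12 (SD 0.444) with it turned. Cyp28d1 had ratios of -0.45, -0.049, -0.41 and -0.11, and Cyp9f3 of 0.40, 0.014, 0.34 and 0.047, also of one sign as deposited. Cyp309a2 and Cyp9c1 were taken up only after their values were seen. Cyp309a2 had ratios of 0.32, 0.044, 0.14 and 0.28, and Cyp9c1 of 0.21, 0.28, 0.18 and 0.16.

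In clan 2, Cyp18a1, which inactivates ecdysone, had ratios of 0.39, 1.01, -0.12 and -0.12, and was thus far from 0 in experiment 4 and close to it in experiments 7 and 8. Its mean was 0.22 in size (SD 0.584), and 0.29 (SD 0.539) with experiment 4 not turned. Cyp304a1 and Cyp305a1, the remaining clan 2 genes, lay between -0.055 and 0.42. In clan 4, whose best known members act on fatty acids and hydrocarbons, Cyp4s3 had ratios of -0.45, 0.10, -0.24 and 0.14. Cyp4g1, which makes the cuticular hydrocarbons of oenocytes and was taken up after its values were seen, had ratios of 0.45, 0.50, 0.29 and -0.32. The 5 genes of the mitochondrial clan, Cyp12a4, Cyp12a5, Cyp12c1, Cyp49a1 and Cyp301a1, lay between -0.45 and 0.49. The cyclophilin gene Cyp1 had ratios of -0.0074, -0.21, 0.47 and -0.22, and Cyp40 lay between -0.077 and 0.076.

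**Figure D2:**
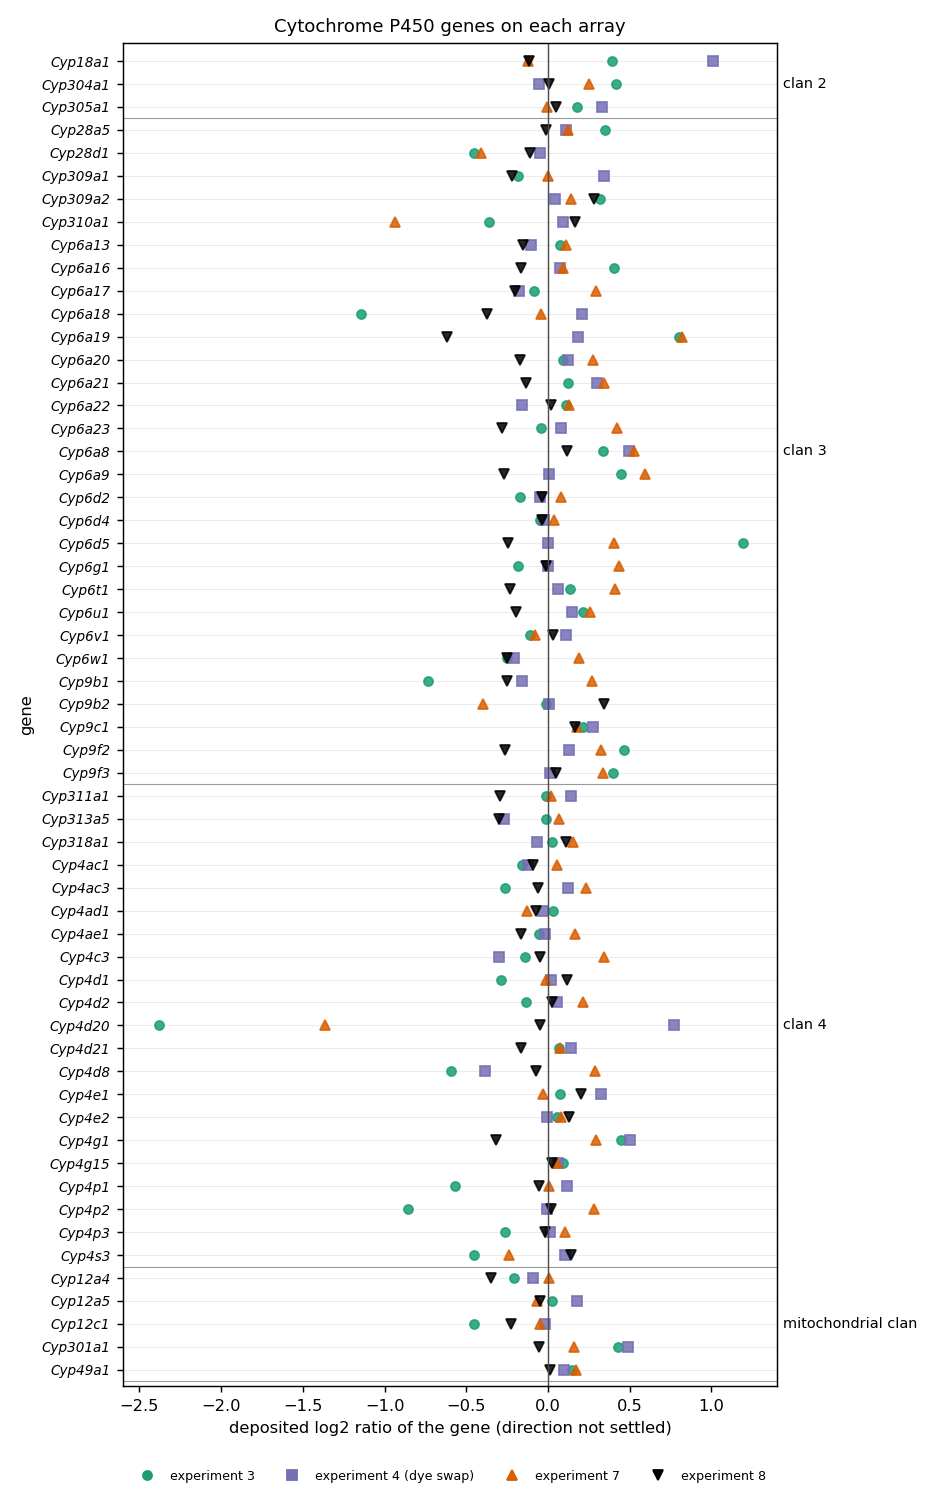
Deposited log2 ratios of the 58 P450 genes, 1 row a gene, grouped by clan, with 1 symbol for each of the 4 arrays and no array turned. Cyp4d20 stands out at -2.38 in experiment 3 and -1.36 in experiment 7, Cyp6d5 at 1.19 and Cyp6a18 at -1.15 in experiment 3, and Cyp18a1 at 1.01 in experiment 4.

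Cyp4d20 had the largest mean of either family, and it rested on 1 of its clones. The gene had ratios of -2.38, 0.77, -1.36 and -0.046 in experiments 3, 4, 7 and 8, which gave 1.14 for the size of the mean (SD 0.987 over 4 arrays, adjusted p = 0.962 from limma), and of 0.75 (SD 1.39) with experiment 4 not turned. Clone RH59895 had ratios of -4.34, 1.63, -2.69 and -0.10, and clone RE17141 had ratios of -0.42, -0.094, -0.039 and 0.011. Their means were 2.19 and 0.088 in size. The clones thus differed by up to 3.92 on 1 array, whereas for the other genes with a pair of spots the largest difference on any array lay between 0.15 for Cyp1 and 0.68 for Cyp6a21. Without RH59895, a setting added after the values were seen, no P450 gene had an unadjusted p under 0.05 in limma with experiment 4 turned.

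The clones of GstD1 moved together. RH09431 had ratios of 0.45, 0.39, 0.97 and -0.64, and RH47312, the clone paired with GstD1 and GstD2, had ratios of 0.49, 0.48, 0.67 and -0.79. They differed by 0.30 at most. For Cyp6v1, the spot SD15568_ReAmp differed in sign from the spot SD15568 on all 4 arrays. Their ratios were 0.096, -0.16, 0.10 and 0.18 against -0.32, 0.38, -0.27 and -0.13. For Cyp4s3, the spots RE63964 and RE63964_ReAmp differed by up to 0.44, in experiment 4.

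**Figure D3:**
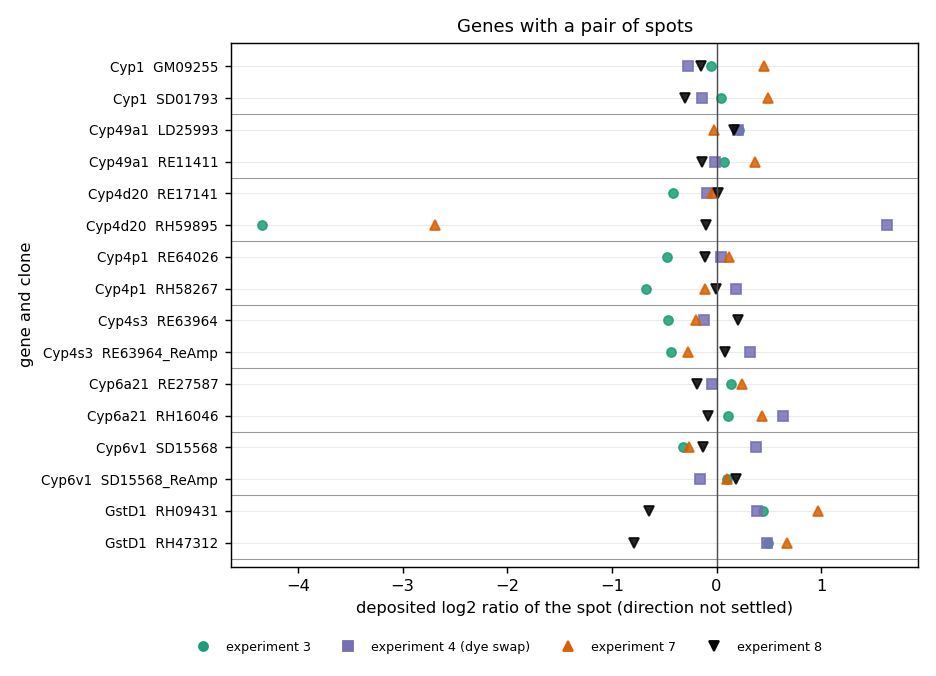
Deposited log2 ratios of each spot for the genes read by a pair of spots, 1 row a spot. Each array has 1 symbol, and no array is turned. A clone name with ReAmp is another spot listed under the same clone name. The pair for GstD1 lies together on every array, whereas for Cyp4d20 only RH59895 is far from 0.

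The medians of the families did not differ from each other beyond the spread of their difference among arrays. The median over GST genes was -0.035, 0.084, 0.16 and -0.047 in experiments 3, 4, 7 and 8, that over P450 genes 0.0070, 0.059, 0.13 and -0.060, and that over all genes -0.028, -0.0021, 0.014 and -0.016. Both families were thus on the same side of 0 in experiments 4, 7 and 8. The median GST minus median P450 ratio was -0.042, 0.024, 0.030 and 0.013 on these arrays. With experiment 4 turned, the median of the means was 0.018 over GST genes and -0.0029 over P450 genes, a difference of 0.021. The difference of the medians on each array, with experiment 4 turned, had an SD of 0.0331 over arrays (n = 4). With experiment 4 not turned these medians were 0.021 and 0.023. Over genes, the median size of the mean was 0.0489 for GST and 0.0654 for P450 genes, against 0.0650 for all genes, with experiment 4 turned. With it not turned it was 0.0714 and 0.109, against 0.0643. The median SD over arrays was 0.165 for GST and 0.225 for P450 genes, against 0.175 for all genes, with experiment 4 turned. With it not turned these were 0.166 and 0.202, against 0.179.

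Large ratios on single arrays were counted in each family. In experiment 3, 0 of 22 GST genes and 7 of 58 P450 genes reached 1.5-fold in size, against 5.48% of all genes. In experiment 4 it was 0 and 2, against 2.60%. In experiment 7 it was 4 GST genes (GstD1, GstD3, GstE6 and GstO3) and 4 P450 genes (Cyp310a1, Cyp4d20, Cyp6a19 and Cyp6a9), against 5.31%. In experiment 8 it was 3 GST genes (GstD1, GstD11 and GstE6) and 1 P450 gene (Cyp6a19), against 3.47%. The P450 genes of experiment 3 were Cyp4d8, Cyp4d20, Cyp4p2, Cyp6a18, Cyp6a19, Cyp6d5 and Cyp9b1, and those of experiment 4 were Cyp18a1 and Cyp4d20.

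Ratios above 0 were found for 10, 13, 19 and 8 of 22 GST genes in experiments 3, 4, 7 and 8, and for 29, 37, 44 and 19 of 58 P450 genes. Over all genes the shares above 0 were 43.2%, 49.4%, 52.8% and 46.0%. One sign on all 4 arrays was seen with experiment 4 turned for 1 GST gene (GstE11) and 6 P450 genes, against 11.9% of all genes, and with it not turned for 1 GST gene (GstE14) and 8 P450 genes, against 9.93%. The P450 counts were thus near the share of all genes. A pattern picked out after the values were seen, above 0 in experiments 3, 4 and 7 and below 0 in experiment 8, held for 8 GST genes (GstD1, GstD3, GstD4, GstE3, GstE6, GstE9, GstO3 and GstT4) and 12 P450 genes, against 11.7% of all genes.

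Experiments 7 and 8 have the same dyes by the labels, so the difference between their ratios does not hinge on the sign of experiment 4. The deposited ratio was above 0 in experiment 7 and below 0 in experiment 8 for 13 of 22 GST genes and 32 of 58 P450 genes, against 33.9% of all genes. The opposite pair of signs was found for 2 GST genes and 7 P450 genes, against 27.1% of all genes. The ratio in experiment 7 was above that in experiment 8 by at least 1 for 4 of 22 GST genes and 1 of 58 P450 genes, against 1.74% of 8346 genes with both values. These were GstD1 at 1.54, GstE6 at 1.37, GstO3 at 1.29, GstD4 at 1.05 and Cyp6a19 at 1.44. GstD3, at 0.95, lay just short of that limit. The ratio in experiment 8 was above that in experiment 7 by at least 1 for 1 GST gene, GstD11, whose experiment 7 minus 8 was -1.19, and for 2 P450 genes, Cyp4d20 and Cyp310a1, against 2.68% of all genes. Among all genes GstD1 ranked at 23 from the top, Cyp6a19 at 27, GstE6 at 36 and GstO3 at 50.

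The median difference, experiment 7 minus experiment 8, was 0.18 over GST genes and 0.23 over P450 genes, against 0.033 over all genes. By GST class it was 1.00 for the 4 delta genes, 0.15 for the 10 epsilon genes, 0.21 for the 3 omega genes, 0.15 for the 3 theta genes and 0.056 for the 2 zeta genes. By P450 clan it was -0.0051 for the 3 genes of clan 2, 0.33 for the 29 of clan 3, 0.14 for the 21 of clan 4 and 0.18 for the 5 of the mitochondrial clan. Counted by sign alone, experiment 7 was above experiment 8 for 17 of 22 GST genes and 44 of 58 P450 genes, against 54.0% of all genes. Next to Cyp6a19 in this order among P450 genes stood Cyp6a9 at 0.86, Cyp6a23 at 0.71, Cyp6t1 at 0.65 and Cyp6d5 at 0.64. The lowest were Cyp4d20 at -1.32, Cyp310a1 at -1.11, Cyp9b2 at -0.74, Cyp4s3 at -0.38 and Cyp28d1 at -0.30. With 1 array on each side, these differences have no test.

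**Figure D4:**
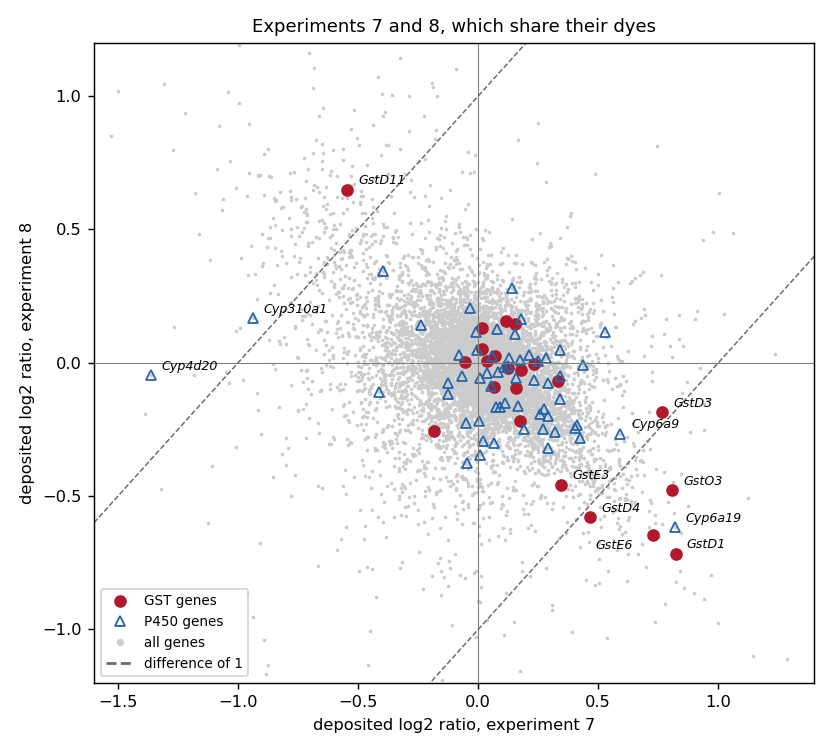
Deposited log2 ratio in experiment 7 (x axis) and in experiment 8 (y axis) for GST genes (filled circles), P450 genes (open triangles) and all genes (grey points, of which 29 lie beyond the axes), with dashed lines at a difference of 1. GstD1, GstE6, GstO3 and GstD4 lie below the lower line with Cyp6a19, and GstD11 lies above the upper one.

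Sensitivity to experiment 8 was checked by leaving it out, a setting chosen after the values were seen where experiment 4 is not turned. Without experiment 8 and with experiment 4 not turned, 7 of 22 GST genes and 9 of 58 P450 genes had an unadjusted p under 0.05 in limma, against 6.61% of all genes. The GST genes were GstD1, GstD3, GstD4, GstE3, GstE6, GstO3 and GstT4, with means of 0.57, 0.40, 0.34, 0.37, 0.48, 0.50 and 0.41 in size. All of them are among the GST genes picked out above for a sign in experiment 8 opposite to the other arrays. Leaving out that array, where the others share a sign, favours small p-values, so this count adds nothing to that pattern. With experiment 4 not turned, the count of GST genes was 0 without experiment 3 and 0 without experiment 7. Over all genes the shares were 0.933% and 2.53%. Without experiment 8 and with experiment 4 turned, the counts were 0 GST and 3 P450 genes, against 6.65%. No gene of either family passed the threshold in these fits, and the smallest adjusted p among them was 0.713 with experiment 4 not turned and 0.719 with it turned.

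Genes of both families lie in runs of neighbours, which the symbol rule did not use. The 9 neighbouring P450 genes on 2R from Cyp6a22 to Cyp317a1 include 8 that were measured. In all 8 the ratio in experiment 7 was above that in experiment 8, by 0.11 to 1.44, against 54.0% of all genes. The same was true of 44 of all 58 P450 genes and of 24 of the 29 in clan 3, to which these 8 belong. In their order along the arm the differences were 0.11 for Cyp6a22, 0.49 for Cyp6a17, 0.71 for Cyp6a23, 1.44 for Cyp6a19, 0.86 for Cyp6a9, 0.45 for Cyp6a20, 0.47 for Cyp6a21 and 0.41 for Cyp6a8. The run of GstE genes, also on 2R, has 10 genes, of which 6 were measured, with differences of -0.12 to 1.37. Of these, 5 were above 0, against 17 of all 22 GST genes and 54.0% of all genes. The run of GstD genes on 3R has 11 genes, of which 4 were measured, with differences of -1.19 to 1.54. Shorter runs on 2R also kept one sign, with 3 of 3 genes above 0 from Cyp4p2 to Cyp4p3 and 0 of 3 from Cyp4ad1 to Cyp4e1. The neighbours Cyp9b1 and Cyp9b2 on 2R had differences of 0.52 and -0.74. Sharing a run thus did not fix the sign. Neighbouring members can be similar in sequence, and whether their clones take up each other's RNA was not tested.

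**Figure D5:**
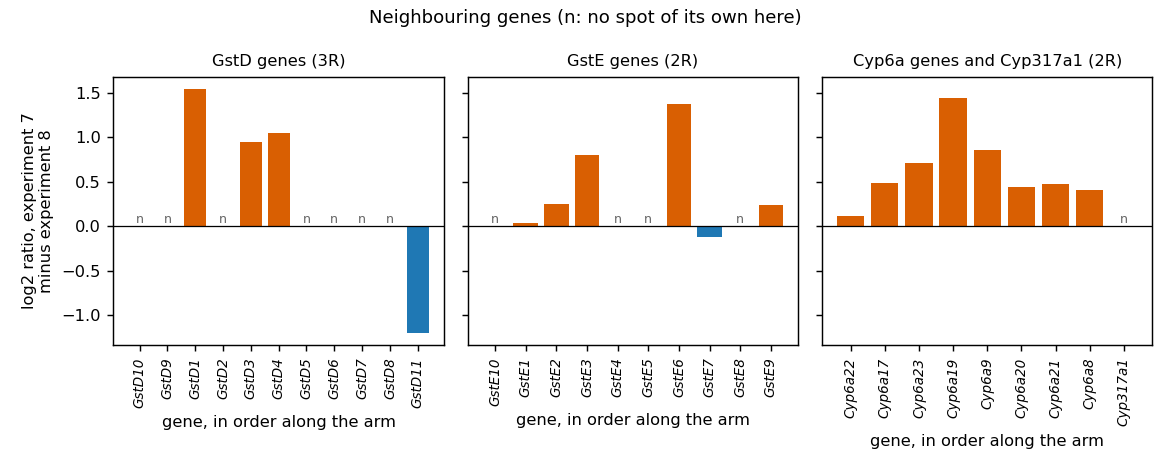
Difference of the deposited log2 ratio, experiment 7 minus experiment 8, for genes in their order along the chromosome arm, in the runs of GstD genes, GstE genes and Cyp6a genes with Cyp317a1; bars start at 0 and n marks a gene with no spot of its own. Among measured genes all 8 bars of the Cyp6a run lie above 0, 5 of 6 in the GstE run and 3 of 4 in the GstD run.

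Genes that work with these enzymes but carry other symbols were read in the same fit, and 0 of them passed the threshold. Among P450 enzymes of ecdysone synthesis, 2 of 6 listed genes were measured. Spo had ratios of -0.43, -0.40, -0.78 and 0.61 in experiments 3, 4, 7 and 8, and shd, which makes the active hormone, had ratios of -0.52, -0.32, 0.23 and 0.11. Of the electron partners, 4 of 6 listed genes were measured (Fdx1, Fdx2, Cyt-b5 and Cyt-b5-r), and all 4 had a higher ratio in experiment 7 than in experiment 8, by 0.12 to 0.54, as were 54.0% of all genes. Of the enzymes with a GST fold or of microsomal type, 3 of 4 were measured. Gfzf, which joins a GST domain to zinc fingers, had ratios of -0.29, 0.16, -0.19 and -0.26. With experiment 4 turned its mean was 0.23 in size with a small spread (SD 0.0581 over 4 arrays, adjusted p = 0.946 from limma). With experiment 4 not turned the mean was 0.14, and the spread was wider, since that array has the opposite sign to the others. With experiment 4 turned gfzf was the 1 gene of these lists with an unadjusted p under 0.05 in limma. Over all genes the share was 4.80%. Mgstl and se, the other measured genes of this type, had means of 0.15 and 0.0067 in size with experiment 4 turned. Glutathione synthesis and recycling had 3 of 5 measured, Gclc, Gclm and Trxr1, with differences between experiments 7 and 8 of 0.15, 0.21 and 0.47.

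Among regulators of these families, cnc, Keap1, maf-S and Hr96 were all measured. Keap1, which holds the Nrf2 homologue encoded by cnc in check, had ratios of -0.19, 0.0015, -0.34 and 0.21. Hr96, a nuclear receptor of the xenobiotic response, had ratios of 0.37, 0.21, 0.25 and -0.37, and cnc itself lay between -0.24 and 0.17. The export pumps Mdr49, Mdr65 and MRP, 3 of 4 listed, were lower in experiment 7 than in 8 by 0.72, 0.24 and 0.11. Over all genes 46.0% were lower. Glucuronosyltransferases act on the products of P450 enzymes. Their 16 genes here were taken by symbol from the genes with values, so unmeasured ones were not listed. Their median was 0.086, 0.070, 0.12 and 0.025 in experiments 3, 4, 7 and 8, with 11 of 16 higher in experiment 7 than in 8, against 54.0% of all genes. With experiment 4 not turned, 2 of the 16 had an unadjusted p under 0.05, against 2.40% of all genes. With experiment 4 turned, their means ran up to 0.15 in size for Ugt36D1 and 0.20 for Ugt36A1, which lay on opposite sides of 0.

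Marker genes of stage and tissue were also read in experiments 7 and 8. Early zygotic genes, a list of 33 of which 20 were measured, had median ratios of -0.21, 0.017, -0.50 and 0.37 in experiments 3, 4, 7 and 8, and 18 of 20 were lower in experiment 7 than in 8, against 46.0% of all genes. The median difference over the 20 genes, experiment 7 minus 8, was -0.87. Maternal germ plasm and localization genes, 14 of 16 measured, had medians of 0.12, -0.11, 0.10 and -0.097, and 9 of 14 were higher in experiment 7 than in 8, near the 54.0% of all genes. Yolk protein genes, the 3 measured of a list of 15 eggshell and yolk genes, had medians of -0.25, 0.16, -0.52 and 0.13. Of 17 gut and fat body genes, the 10 measured had medians of -0.14, 0.10, -0.015 and -0.13. In experiment 7, 1 of the 3 yolk protein genes and 8 of these 10 genes were higher than in 8, against 54.0% of all genes. The part of these genes in the values of the GST and P450 genes was not tested. Over all genes the ratios of experiments 7 and 8 correlated at -0.35 (-0.27 over spots), those of experiments 3 and 7 at 0.30, and the other pairs between -0.12 and 0.13. Over the 22 GST genes the same correlations were -0.81 for experiments 7 and 8 and 0.80 for experiments 3 and 7. Over the 58 P450 genes they were -0.35 and 0.62. The other pairs of GST genes gave 0.74 (experiments 3 and 4), 0.48 (4 and 7), -0.66 (3 and 8) and -0.50 (4 and 8). Those of P450 genes lay between -0.27 and 0.037. No array is turned in these correlations. They describe genes that share their arrays and, in part, their sequence, and have no test.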

How the data were processed

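The authors hybridised cDNA of wounded and unwounded embryos on FHCRC Fly 12k spotted cDNA arrays, read the scans with GenePix Pro 6.0 and used limma for a loess normalization of every array on its own. The log2 ratios so made are what they deposited. The methods also remove dim or questionable spots, and whether this was done to these values is not known. Independent experiments are stated, separate cultures are not, so the p-values cover only the spread among these 4 samples, and the number of arrays limits the precision. No depth applies to arrays.

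Of 12144 spots, 160 controls were left out. Of 11984 probes, 9917 had 1 gene in the platform annotation, 625 several and 1442 none, and 167 of the last were named from the clone table of the study. Symbols were updated through RefSeq Release 6 by gene number (9746 probes), symbol (22) or synonym (138), and 11 were kept. Members were named by gene symbol, and no coordinates are given since the sources name no build. Of probes 98.4%, and of 128 plant control spots 10.9%, had values on all 4 arrays.

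Spots of a gene were averaged per array, and limma 3.58.1 under R 4.3.3 was run on genes with values on 3 arrays or more (two-sided, lmFit and eBayes without a dye term), with p-values adjusted by Benjamini-Hochberg over all 8360 genes. This was tested on simulated data. Alternatives covered the sign of experiment 4, a dye term, filters, scaling, centring, spot averaging and left-out arrays. The text names all GST genes, Cyp6a9 and Cyp6a19, the P450 genes with the largest means (8 with experiment 4 turned, 5 not turned), the 5 highest and 5 lowest in experiment 7 minus 8, and the ends of each pathway list. Members and lists were chosen with earlier results of these data known.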

Additional observations from a re-analysis of the deposited data

Results flagged for a closer look

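In 2 of 82 sets of 4 array values, 1 array stood apart from the other 3 by Dixon's test at the 95% level, where chance gives about 4.1. For Cyp6a13, a clan 3 P450 gene, experiment 8 stood apart at -0.15, against 0.074 and 0.11 in experiments 3 and 7 and -0.11 in experiment 4, which is turned here. For Cyp9c1, of the same clan, the deposited ratio of 0.28 in experiment 4 stood apart once turned, against 0.21, 0.18 and 0.16 in experiments 3, 7 and 8. As deposited, its 4 values lay close together (SD 0.0498).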

How the results depend on the processing

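No GST or P450 gene passed the threshold under any setting tried, including each spot fitted on its own. The count of GST genes with an unadjusted p under 0.05 was 0, and it was 2 with experiment 4 not turned. When single arrays were left out with experiment 4 turned, it was 0 to 1. With experiment 4 not turned it was 0, 0 and 7 without experiments 3, 7 and 8. The count of P450 genes was 1, and it was 4 with experiment 4 not turned, 2 with a dye term, 1 to 4 when single arrays were left out, and 0 without the clone RH59895. With experiment 4 not turned it was 1, 5 and 9 without experiments 3, 7 and 8. Over all genes the share was 4.80%, and it was 2.40% with experiment 4 not turned, 4.63% with a dye term and 4.78% without RH59895. When single arrays were left out with experiment 4 turned, this share was 3.27% to 6.65%. With experiment 4 not turned it was 0.933%, 2.53% and 6.61% without experiments 3, 7 and 8. The median over GST genes lay between -0.035 and 0.055 and that over P450 genes between -0.054 and 0.030 when single arrays were left out, and their difference between -0.0081 and 0.025. With experiment 4 not turned and without experiment 8 that difference was -0.0172. The cause of these changes was not tested. The counts of genes higher in experiment 7 than in 8 by at least 1 were the same under scaling and centring. Centring shifts every such difference by the same amount. Taking the median of spots, or only genes with values on all 4 arrays, could not change these counts. Members had at most a pair of spots and had values on every array. The opposite counts were not recomputed. Of 51 named genes, the mean changed sign for 13 with experiment 4 not turned, for 8 with a dye term, for 2 with arrays scaled and 2 with arrays centred, and for 4 to 17 when single arrays were left out. Settings that leave out an array with experiment 4 not turned, and the one without RH59895, were added after the values were seen. Each ratio already sets wounded against unwounded RNA on 1 array. No paired analysis was possible beyond that, because the arrays form 1 group.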
